A study of Mus musculus with 27 samples.

Results

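The transcripts described here are 5 secreted or membrane-bound matrix metalloproteases, *Mmp2*, *Mmp3*, *Mmp9*, *Mmp14* and *Mmp19*, and the 4 tissue inhibitors of metalloproteases, *Timp1* to *Timp4*. These 9 genes were chosen by name from the 36333 genes in the expression table, and all 9 were found there. They were followed in male *Mlx*KO mice labelled as aged 5 or 20 months, in liver, omental adipose tissue and skeletal muscle. Every tissue has 4 young and 5 old samples, which makes 27. All mice carried the Gt(ROSA)26Sortm1(cre/ERT2)Tyj/J transgene, on a line labelled B6.129, together with *Mlx* alleles labelled Flox/Flox. The transgene makes a tamoxifen-activated Cre recombinase from a ubiquitously active locus, so that *Mlx* can be removed throughout the body. The study's supplement lists a part of the *Mlx* transcript remaining in mice with these code numbers, so the deletion is not complete. The remaining part was largest in muscle at both ages, so its degree differed between the tissues, and it may differ between the ages. Each mouse received tamoxifen by intraperitoneal injection in corn oil, 75 mg/kg on 5 successive days, after weaning and at a weight of at least 15 g. No untreated or WT group was analysed here, so every comparison below is between ages or tissues of mice that share the targeted alleles and the treatment. The 5-month mice each gave all 3 tissues and are called A, B, C and D, in the order of the numbers in their codes, whereas the 20-month samples carry a different number in each tissue and were treated as separate mice, named by that number. Values are listed below in the order A to D, and for old mice in the order of their numbers (36 to 40 in adipose tissue, 16 to 19 and 74 in liver, 56 to 60 in muscle). The labels state 20 months as the older age, but the codes of those samples begin with X18. The study's supplement lists older mice, matched by tissue and final digits, at the age in months that follows the X, not at 20. The older group is called 20 months here, as labelled, and its exact age was not resolved.

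Matrix metalloproteases are zinc-dependent endopeptidases that cut collagens, elastin, fibronectin and other components of the extracellular matrix, and they also release growth factors and cytokines held there. Most are secreted as inactive proenzymes, and Timps block the active enzymes by occupying their catalytic site. The system has a known internal circuit: Mmp14, anchored in the cell membrane, uses Timp2 as an adaptor to bind and activate pro-Mmp2, so that Timp2 can both permit and inhibit the same enzyme. In liver these genes are studied mostly in fibrosis, in adipose tissue in the expansion of the depot, and in skeletal muscle in repair and in the upkeep of the sheath around the fibres.

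The values are reads per gene on a per-million scale, divided by the authors by a factor for each sample, and are called normalized values below. Between 14384695 and 25673919 reads fell on genes in each sample. A gene at 0 lay below what 3 reads can show, which was 0.0703 to 0.242 on this scale depending on the sample. These limits cover counting error only. The tissue labels matched their markers: the summed hepatocyte markers were 38878 to 147373 in liver and at most 299 elsewhere, the adipocyte markers were 3032 to 5675 in adipose tissue and at most 219 elsewhere, and the muscle-fibre markers were 115183 to 149107 in muscle. Muscle-fibre markers summed to 327 to 804 in adipose tissue at 5 months and 96.2 to 547 at 20 months. *Mlx* itself had a liver range of 18.8 to 32.4, an adipose range of 8.19 to 13.9 and a muscle range of 7.04 to 11.6. Without WT samples these levels do not measure the deletion. The liver of 20-month mouse 74 stood apart, with a scaling factor of 1.05 where the other 20-month livers had 0.81 to 0.85 and with the lowest hepatocyte marker sum, so liver results are also given without it. The labels give liver a different RNA extraction kit from adipose tissue and muscle, whereas the study's methods name a single kit for all samples. If the kits did differ, kit and tissue cannot be told apart in the tissue comparisons.

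In GRCm38.p6 the proteases lie at chr8:92827290-92853421 (*Mmp2*), chr9:7445822-7455975 (*Mmp3*), chr2:164940326-164955850 (*Mmp9*), chr14:54431598-54442456 (*Mmp14*) and chr10:128790910-128800827 (*Mmp19*), all on the plus strand. The inhibitors lie at chrX:20870166-20874737 (*Timp1*, plus strand), chr11:118301061-118355411 (*Timp2*, minus strand), chr10:86300412-86349505 (*Timp3*, plus strand) and chr6:115244444-115252205 (*Timp4*, minus strand). *Timp1*, *Timp3* and *Timp4* sit inside or across the synapsin genes *Syn1*, *Syn3* and *Syn2* on the opposite strand, *Mmp19* overlaps *Tmem198b* and *Gm47093* on the opposite strand, and *Timp2* overlaps *Cep295nl* on its own strand. The library kit keeps the strand, but the strand setting used in counting is not given in the sources used here, so reads of these pairs may not be fully separated.

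RefSeq promoter sequences of GRCm38.p6 were found for 6 of the 9 genes (*Mmp3*, *Mmp14*, *Timp1*, *Timp2*, *Timp3* and *Timp4*). They were searched on both strands, from 250 bases before to 50 bases after the start, for 3 motifs, of which no match overlapped a match of another in these 6: the AP-1 letters TGANTCA, bound by Fos and Jun proteins that are classical inducers of *Mmp3*, the Ets letters AGGAAG, and the E-box CACGTG, the kind of site that Mlx-containing dimers can recognise. The AP-1 letters were present in 7.81% of 32851 promoters and in *Mmp3* alone among the 6, at position -46. The Ets letters were present in 35.4% of promoters and in 5 of the 6, once each in *Mmp3*, *Mmp14*, *Timp3* and *Timp4* and 3 times in *Timp1*. The E-box was present in 7.15% of promoters and in none of the 6. The 250 bases before the start are printed for *Mmp3*, which holds the AP-1 match, for *Timp1*, which holds most Ets matches, and for *Mmp14* and *Timp4*, the genes whose fall in muscle described below did not rest on any single mouse. Sequences run 5′ to 3′ on the gene's strand, and capitals mark the motif letters.
Mmp3, chr9:7445572-7445821, plus strand: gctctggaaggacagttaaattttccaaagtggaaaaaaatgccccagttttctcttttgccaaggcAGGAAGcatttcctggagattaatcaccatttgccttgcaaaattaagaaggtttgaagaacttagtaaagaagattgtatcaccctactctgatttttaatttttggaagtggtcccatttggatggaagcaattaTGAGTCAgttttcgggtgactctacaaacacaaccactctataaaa
Timp1, chrX:20869916-20870165, plus strand: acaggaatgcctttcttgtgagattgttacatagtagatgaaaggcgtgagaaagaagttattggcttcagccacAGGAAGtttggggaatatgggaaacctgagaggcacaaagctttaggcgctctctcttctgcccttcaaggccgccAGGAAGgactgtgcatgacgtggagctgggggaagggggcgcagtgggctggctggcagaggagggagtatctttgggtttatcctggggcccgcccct
Mmp14, chr14:54431348-54431597, plus strand: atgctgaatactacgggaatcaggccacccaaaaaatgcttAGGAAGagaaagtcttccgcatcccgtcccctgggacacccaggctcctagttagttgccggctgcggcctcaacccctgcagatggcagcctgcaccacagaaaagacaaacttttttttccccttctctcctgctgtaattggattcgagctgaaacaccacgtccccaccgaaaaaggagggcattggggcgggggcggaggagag
Timp4, chr6:115252206-115252455, minus strand: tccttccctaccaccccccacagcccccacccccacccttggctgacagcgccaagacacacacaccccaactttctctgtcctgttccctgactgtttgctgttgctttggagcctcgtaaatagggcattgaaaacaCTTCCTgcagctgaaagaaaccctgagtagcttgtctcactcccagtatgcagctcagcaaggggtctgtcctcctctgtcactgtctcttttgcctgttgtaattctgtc
A match describes letters in this window and was not tested as a site.

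Among these 9 genes, the tissues differed first in whether proteases or inhibitors were more abundant. To compare genes with each other, normalized values were divided by the length of the gene's exons in kilobases. On this length-scaled level, the summed Timps made up 27.1% of the 9 genes in liver at 5 months and 27.6% at 20 months. They made up 77.4% and 67.5% in adipose tissue, and 77.0% and 77.4% in muscle. Other Mmp genes are outside these sums, so the shares do not describe all proteases. Among those left out is *Mmp12*, whose normalized adipose mean was 74.3 at 5 months and 996 at 20 months. In liver the highest length-scaled levels were those of *Mmp14* (21.3 ± 2.93 per kb, SD, n = 4, at 5 months) and *Mmp19* (19.7 ± 0.747), ahead of *Timp3* (9.03 ± 3.03) and *Timp2* (6.69 ± 0.668). In adipose tissue *Timp2* led with 130.3 ± 21.1 per kb at 5 months, followed by *Timp3* with 100.9 ± 25.3. The highest protease among the 9 genes was *Mmp14* with 27.3 ± 4.87. In muscle *Timp3* (55.4 ± 24.98 per kb) and *Timp2* (53.9 ± 10.1) did not differ beyond their spread at 5 months. *Mmp2*, at 18.7 ± 2.61, was the leading protease among the 9 genes. At the low end, *Mmp3*, *Timp1* and *Timp4* were at or near 0 in liver at 5 months.

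**Figure D1:**
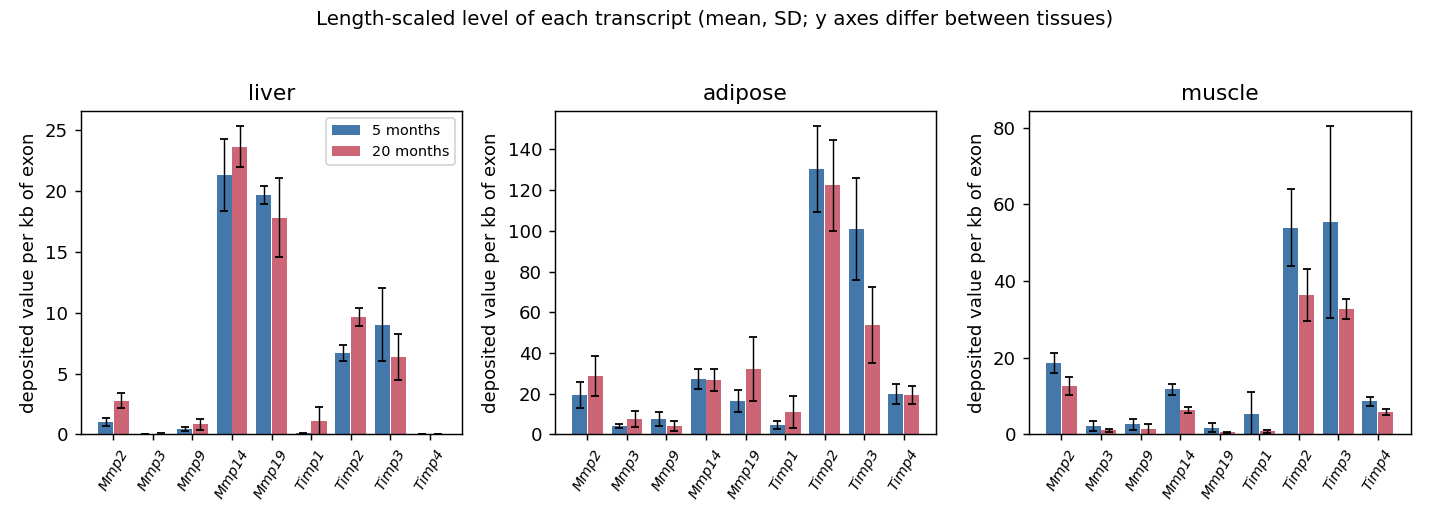
Length-scaled level (normalized value per kb of exon, linear axis from 0 that differs between tissues) of the 9 transcripts in liver, adipose tissue and muscle, as mean (bar) and SD (error bar) of 4 samples at 5 months and 5 at 20 months. *Mmp14* and *Mmp19* are the tallest bars in liver, and *Timp2* and *Timp3* in adipose tissue and muscle.

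Between tissues, the same samples serve in several comparisons, the 5-month tissues come from the same 4 mice, and 72.8% to 77.2% of all genes passed the test, so a call here is the usual case. At 5 months 8 of 9 members were lower in liver than in adipose tissue (76.4% of 15572 genes were called in either direction and 6208 lower in liver). A low-value filter was applied over all 27 samples, and *Mmp3*, *Timp1* and *Timp4* were at or near 0 in these livers. They passed it through the other tissues, so at 5 months they could only be lower in liver, also against muscle. *Mmp14* was called by a narrow margin (-0.34, adjusted p = 0.0367) and lost its call without the liver of mouse B or D or the adipose tissue of mouse A, B or C (adjusted p = 0.0597 to 0.14). The call was also lost with median-of-ratios factors (limma adjusted p = 0.0572) and without the filter (0.0503). *Mmp19* was the exception, with 64.7 to 70.1 in liver and 39.7 to 76.8 in adipose tissue (log2 difference of liver minus adipose 0.32, SE 0.331, limma adjusted p = 0.383). Against muscle, all 9 members were called at 5 months (72.9% of genes): 7 were lower in liver, and *Mmp14* and *Mmp19* were higher, by 0.84 and 3.41 on the log2 scale. Adipose tissue exceeded muscle in 7 members (72.8% of genes called in either direction, and 6531 of 15572 higher in adipose tissue). *Mmp3* (0.94, adjusted p = 0.00432) lost this call in edgeR (adjusted p = 0.0608) and DESeq2 (adjusted p = 0.0612). Each of these called 6 members, beside 11276 and 11381 of 15572 genes. The 2 not called were *Mmp2* and *Timp1*. For *Mmp2* the difference was 0.01 (-0.49 to 0.51), and it took a negative sign, -0.06, with median-of-ratios factors. For *Timp1* it was 0.07 (SE 0.454) and it took a negative sign in edgeR and DESeq2.

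At 20 months 8 of 9 members were again lower in liver than in adipose tissue (74.5% of genes called, and 6041 of 15572 lower in liver). This time *Mmp14* was not called (-0.15, 95% interval -0.42 to 0.12). *Mmp3* and *Timp4* were again at or near 0 in liver, so here and against muscle they could only be lower in liver. *Mmp19* was at -0.71 (adjusted p = 0.0342) and lost its call without liver 16 or 74 or adipose sample 37, 38 or 39 (adjusted p = 0.059 to 0.128). Its call was also lost without the filter (limma adjusted p = 0.0568). Between liver and muscle 7 members were called (77.2% of genes), *Mmp14* and *Mmp19* higher in liver by 1.85 and 4.36 and 5 members lower. *Mmp9* and *Timp1* were not called there, at -0.31 (-1.16 to 0.54) and 0.12 (-0.71 to 0.96). All 9 members were higher in adipose tissue than in muscle, with log2 differences from 0.64 for *Timp3* to 5.06 for *Mmp19*. Among all genes 76.0% were called in either direction, and 6553 of 15572 were higher in adipose tissue. The *Timp3* call was lost without adipose sample 36, 39 or 40 or muscle sample 57 or 58 (adjusted p = 0.052 to 0.103), and without the filter (limma adjusted p = 0.0525). In these fits the median of all genes for adipose tissue minus muscle lay at 0.18 at 5 months and 0.17 at 20 months. *Timp4*, an inhibitor known from heart, adipose tissue and muscle, had the most restricted pattern. It was 0 in all 4 livers at 5 months, 81.7 to 152 in adipose tissue and 45.9 to 61.4 in muscle. Set against the highest limit that 3 reads allow in a liver sample, its mean was at least 482-fold higher in adipose tissue and at least 211-fold higher in muscle.

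**Figure D2:**
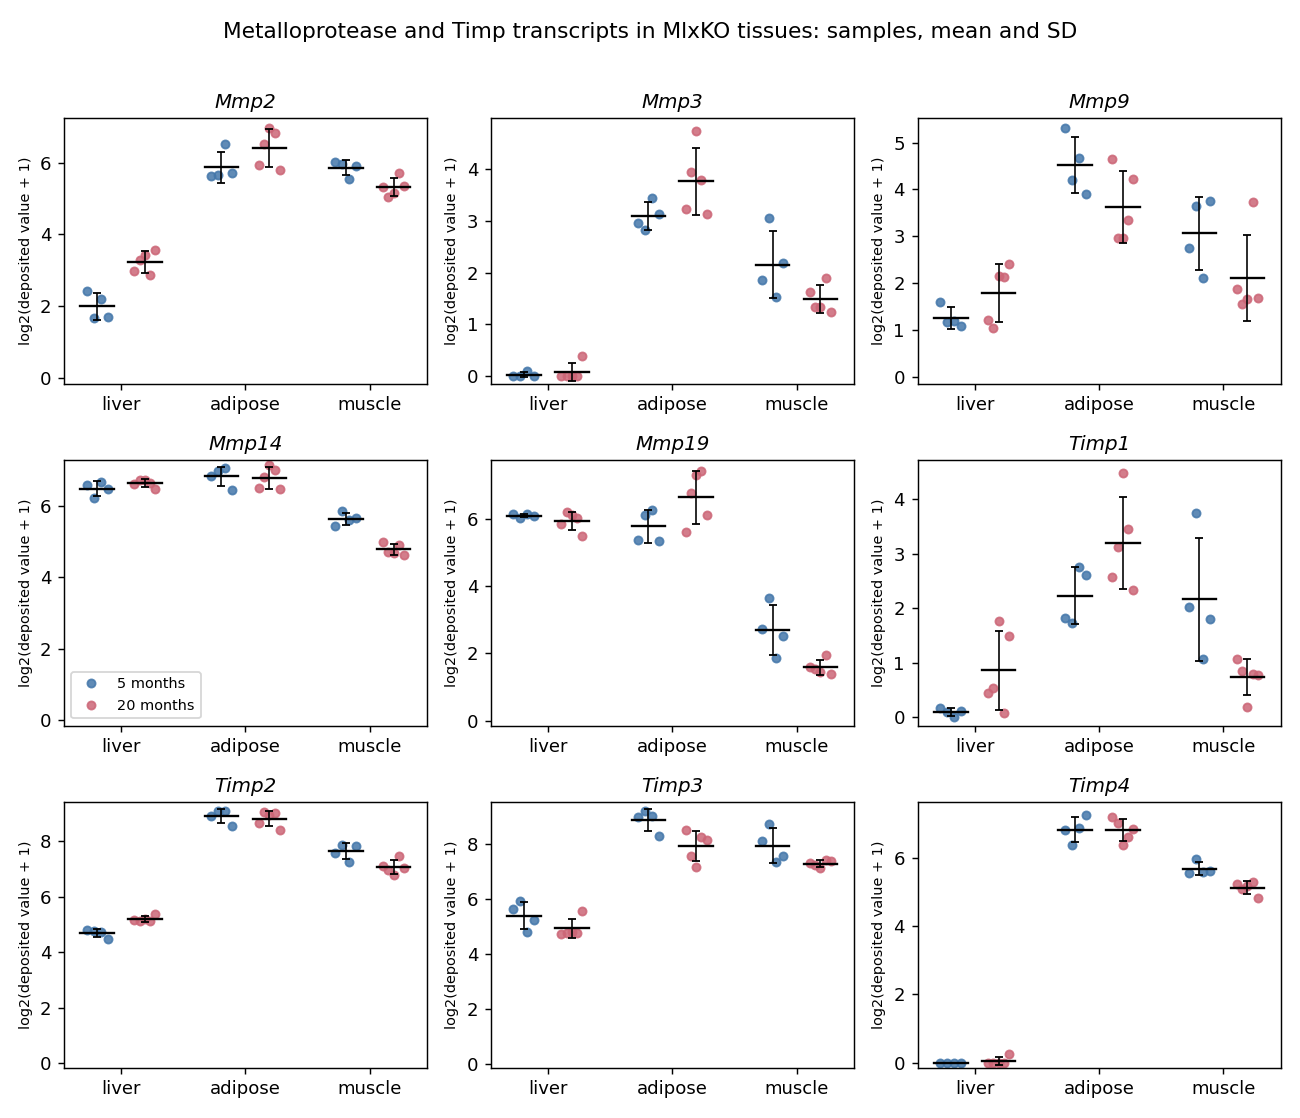
log2(normalized value + 1) of the 9 transcripts in every sample (points), by tissue and age, with mean (bar) and SD (whiskers); n = 4 at 5 months and n = 5 at 20 months. *Timp4* and *Mmp3* are at or near 0 in liver, and *Mmp19* is far lower in muscle than in the other tissues.

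The age comparison asks how these transcripts differ between adult and old mice in which *Mlx* was targeted. Within each tissue it was tested by limma on log2(value + 1) with Benjamini-Hochberg adjustment over all genes passing a low-value filter. On this scale the change of low genes is understated. The replicate samples come from separate mice.

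In liver the pair that forms the activation complex with Mmp14 rose. *Mmp2*, the gelatinase that cuts denatured and basement-membrane collagen, had normalized values of 4.39, 2.18, 3.64 and 2.24 in the 4 mice at 5 months and 6.87, 8.77, 9.86, 6.30 and 10.9 in the 5 mice at 20 months. Every 20-month liver was above every 5-month liver, and the means, 3.11 ± 1.09 and 8.55 ± 1.96, differed 2.75-fold. The log2 change was 1.23 (95% interval 0.77 to 1.69, limma adjusted p = 0.00866). *Timp2* was 26.6, 26.2, 25.3 and 21.2 at 5 months and 34.96, 34.1, 35.95, 33.6 and 40.5 at 20 months. Its groups did not overlap either, with a log2 change of 0.51 (0.29 to 0.74, adjusted p = 0.0119). Of the 6 members tested in liver these 2 were called, both higher, beside 19.8% of 12654 genes called in either direction and 1269 called higher. Members whose ages did not overlap were the same 2, beside 19.1% of genes in either direction and 8.46% with every old liver above.

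*Mmp14*, the third component of that complex, was 94.4, 73.1, 102 and 87.3 at 5 months and 97.3, 104, 106, 99.6 and 88.1 at 20 months. The groups overlapped, and the log2 change of 0.16 (-0.09 to 0.40) did not pass the test (adjusted p = 0.329). *Mmp19*, a stromal protease of basement-membrane proteins, was 64.7 to 70.1 at 5 months and 44.4 to 72.7 at 20 months, with a change of -0.16 (-0.46 to 0.14, adjusted p = 0.409). *Mmp9*, the other gelatinase and a product of neutrophils and macrophages, was 2.04, 1.24, 1.28 and 1.12 at 5 months. At 20 months it was 1.32, 1.05, 3.45, 3.35 and 4.31. The last 3 of these, from mice 18, 19 and 74, were above every 5-month value, and their livers also had the highest neutrophil marker sums, 29.9, 25.2 and 23.3, where the other 6 livers had 4.85 to 10.8. All 5 neutrophil markers were in the table. The part of neutrophil RNA in the *Mmp9* values was not tested, and the *Mmp9* change of 0.53 (-0.11 to 1.17) did not pass the test (adjusted p = 0.208). *Timp3*, the inhibitor that stays bound to the matrix, was 48.5, 59.3, 26.4 and 36.4 at 5 months and 25.4, 25.7, 26.7, 26.2 and 46.2 at 20 months, with a change of -0.47 (-0.99 to 0.06, adjusted p = 0.176).

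The other 3 members did not reach the filter in liver. *Timp1*, the inducible inhibitor that marks hepatic injury, rested on 2, 1, 0 and 1 reads at 5 months and 7, 9, 45, 1 and 36 reads at 20 months. In normalized values the 20-month livers were at 0.356, 0.451, 2.39, 0.0568 and 1.80, so that 4 of the 5 lay above every 5-month value and mouse 19 did not. Run without the filter, its log2 change was 0.76 (limma adjusted p = 0.15). *Mmp3*, stromelysin-1, had a single read in 1 liver at 5 months and 6 reads in mouse 74 at 20 months, and 0 in the other 7. *Timp4* had 4 reads in mouse 74 and 0 in the other 8 livers. Mouse 74 was thus the highest of the 5 old livers in 6 of the 9 members. Without it *Mmp2* changed by 1.14 (adjusted p = 0.0113), *Timp2* by 0.47 (adjusted p = 0.0134) and *Timp3* by -0.63 (adjusted p = 0.0558). Both liver calls held with each of the 9 samples left out.

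Marker sums of other cell types were compared in the same livers. The 4 B-cell markers summed to 1.24 to 6.48 at 5 months and 6.63 to 14.03 at 20 months, the one list beside the hepatocyte markers that separated the ages. The 5 macrophage markers summed to 143.9 to 248.9 at 5 months and 166 to 594 at 20 months, and the 5 fibroblast markers to 188 to 318 and 252 to 365. The 5 stellate-cell markers summed to 241 to 372 and 263 to 361. These 3 lists overlapped between ages. The hepatocyte markers fell without overlap, from 92261 to 147373 at 5 months to 38878 to 89483 at 20 months. No marker of the macrophage, fibroblast or stellate lists was at 0 in all livers. In such tissue samples a different number of cells and a different amount of RNA per cell cannot be told apart, and the part of cell composition in the changes was not tested.

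In omental adipose tissue none of the 9 members passed the test, beside 19.1% of 14005 genes called, and 0 members were separated between ages, beside 17.4% of genes. At an unadjusted limma p under 0.05, *Timp3* and *Timp1* would have been counted, beside 5601 of 14005 genes. edgeR called 0 members, beside 2692 of 14005 genes, and DESeq2 called 3, beside 4347 of 14005 genes. *Timp3* came closest. It was 501, 589, 508 and 308 at 5 months and 361, 186, 142, 300.4 and 279 at 20 months. All 5 old values lay below the 5-month mean, 477 ± 119, but mice 36 and D kept the ranges overlapping. Its log2 change was -0.94 (-1.60 to -0.29, limma adjusted p = 0.0503). Without mouse D it was -1.14 (adjusted p = 0.0266), without mouse 36 it was -1.09 (adjusted p = 0.0257), and the DESeq2 value was -0.93 (adjusted p = 0.0103). The 4 endothelial markers summed to 551 to 1250 at 5 months and 338 to 654 at 20 months, and their part in *Timp3* was not tested.

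*Mmp19* was 41.0, 68.9, 76.8 and 39.7 at 5 months and 47.7, 109, 159, 173 and 68.2 at 20 months, a log2 change of 0.86 (-0.00481 to 1.73, adjusted p = 0.127). Mice 37, 38 and 39 were above every young sample and mice 36 and 40 were within the young range. *Timp1*, which also blocks Mmps and is induced in inflamed fat, was 2.55, 2.33, 5.74 and 5.06 at 5 months and 4.95, 7.67, 21.3, 9.91 and 4.06 at 20 months (0.96, 0.03 to 1.90, adjusted p = 0.118). *Mmp3* was 6.10 to 9.92 at 5 months and 8.37, 14.4, 25.7, 12.8 and 7.77 at 20 months (0.68, -0.00471 to 1.36, adjusted p = 0.127). In all 3 transcripts mice 37, 38 and 39 exceeded every young sample.

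The 5 macrophage markers set the same mice apart. Their sum was 845, 614, 1413 and 794 at 5 months, and 861, 3055, 4852, 2452 and 1300 at 20 months for mice 36 to 40, highest in mouse 38, which also had the highest *Mmp3* and *Timp1*. The 5 fibroblast markers summed to 1181 to 1646 and 873 to 1193. No marker of these lists was at 0 in all adipose samples. The part of macrophage RNA in these values was not tested. Without mouse 36, whose macrophage sum was the lowest of the old group, 3 members were called: *Mmp19* (1.13, adjusted p = 0.0356), *Timp3*, and *Mmp9* (-1.15, adjusted p = 0.043). Over the removals of an adipose sample the count of all genes called ranged from 397 to 3748.

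The remaining adipose transcripts showed no age change past the test. *Mmp9* was 38.4, 17.4, 24.5 and 13.999 at 5 months and 23.9, 6.74, 6.84, 9.23 and 17.6 at 20 months (-0.89, -1.80 to 0.01, adjusted p = 0.128). The neutrophil markers summed to 7.76 to 13.3 at 5 months and 11.6 to 17.1 at 20 months in adipose tissue. Their median was thus higher in the old group, from 10.97 to 16.4, where the *Mmp9* estimate was negative. The part of neutrophil RNA in adipose *Mmp9* was not tested. *Mmp2* was 48.0, 49.2, 89.7 and 51.3 at 5 months and 60.5, 89.8, 123, 113 and 54.4 at 20 months (0.54, -0.10 to 1.17, adjusted p = 0.179). Young mouse C had nearly the level of the higher old samples, and it had the highest macrophage sum of the young group. *Mmp14*, *Timp2* and *Timp4* had log2 changes of -0.04 (-0.45 to 0.36), -0.09 (-0.51 to 0.32) and -0.02 (-0.49 to 0.45). *Timp2* ran from 373 to 543 at 5 months and from 339 to 529.5 at 20 months, and *Timp4* from 81.7 to 152 and from 81.8 to 147.

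**Figure D3:**
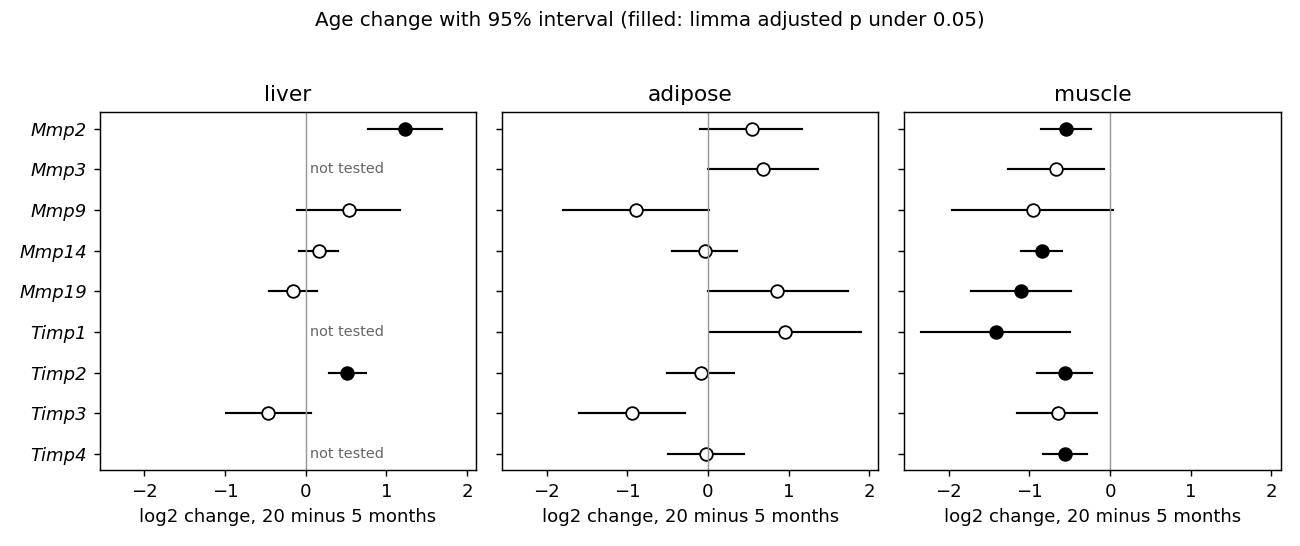
log2 change from 5 to 20 months (20 minus 5, on log2(value + 1)) of each transcript with its 95% interval, by tissue; filled points passed limma's test after adjustment over all genes, and members below the low-value filter are marked as not tested. Filled points lie right of 0 in liver (*Mmp2*, *Timp2*) and left of 0 in muscle (6 genes), and adipose tissue has none.

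In skeletal muscle 3 proteases (*Mmp2*, *Mmp14*, *Mmp19*) and 3 inhibitors (*Timp1*, *Timp2*, *Timp4*) fell. All 9 members were tested and all 9 had a negative estimate. *Mmp3*, *Mmp9* and *Timp3* did not pass, and 6 did, beside 19.3% of 12720 genes called in either direction and 10.1% called lower. The median change of the 9 was -0.667 on the log2 scale, where the median of all genes tested was 0.0168. *Mmp14* had the smallest adjusted p. Its normalized values were 42.4, 57.1, 47.6 and 49.5 at 5 months and 30.9, 25.5, 24.6, 29.3 and 23.9 at 20 months. The ages did not overlap, and the means of 49.1 ± 6.08 and 26.8 ± 3.07 gave a log2 change of -0.85 (-1.10 to -0.60, limma adjusted p = 0.00177). *Timp4* was 45.9, 61.4, 46.9 and 48.2 at 5 months and 36.4, 33.0, 35.5, 38.4 and 27.1 at 20 months. It too was without overlap, and changed by -0.56 (-0.83 to -0.29, adjusted p = 0.0132). These were the 2 members separated by age in muscle, beside 17.3% of genes separated in either direction and 8.64% with every old muscle below, and the 2 called with any sample left out.

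*Mmp2* was 64.2, 60.9, 45.9 and 58.8 at 5 months and 38.7, 32.1, 34.5, 50.9 and 39.6 at 20 months. Old mouse 59 lay above young mouse C, and the other old muscles were below all young ones. The change was -0.55 (-0.86 to -0.24, adjusted p = 0.0222). *Timp2* was 191, 234, 151 and 225 at 5 months and 138, 124, 108, 176 and 129 at 20 months, with the same single overlap and a change of -0.56 (-0.90 to -0.23, adjusted p = 0.0286). The 3 genes of the Mmp14, Timp2 and Mmp2 complex thus all passed the test in the same direction in muscle.

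*Mmp19* was 5.61, 11.6, 2.66 and 4.74 at 5 months and 2.02, 1.93, 1.74, 2.87 and 1.64 at 20 months, a change of -1.10 (-1.73 to -0.48, adjusted p = 0.023). *Timp1* was 3.07, 12.3, 1.10 and 2.51 at 5 months and 1.11, 0.798, 0.145, 0.735 and 0.713 at 20 months. It rested on 14 to 153 reads in the young and 2 to 17 reads in the old muscles, and changed by -1.42 (-2.34 to -0.50, adjusted p = 0.0367). *Timp1* reached 1 in every young muscle but only in mouse 56 among the old. It thus passed the filter through the group where it was high, and its place among the called members depends on that. *Timp3* was 277, 422, 161 and 187 at 5 months and 155, 148, 138, 168 and 165 at 20 months. The old muscles were much closer to each other (155 ± 12.2) than the young (261 ± 118), and the change of -0.65 (-1.15 to -0.16) did not pass (adjusted p = 0.0611). *Mmp3* was 1.88 to 7.26 at 5 months and 1.35 to 2.72 at 20 months (-0.67, -1.26 to -0.07, adjusted p = 0.101).

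*Mmp9* was 5.69, 11.5, 3.29 and 12.4 in young muscle and 2.67, 1.93, 2.17, 12.2 and 2.21 in old muscle. Mouse 59 held a level of the young group and the other 4 old muscles lay below all young ones. The change was -0.96 (-1.96 to 0.04, adjusted p = 0.149) with mouse 59 and -1.36 (adjusted p = 0.0221) without it. The neutrophil markers of that muscle summed to 70.0, where the other 4 old muscles had 1.14 to 4.24 and the young ones 21.1, 23.8, 3.76 and 31.4. Young mouse C was the lowest of its group in both *Mmp9* and the neutrophil sum. The part of neutrophil RNA in *Mmp9* was not tested.

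Single mice weighed on the muscle count. Mouse B was the highest of the young muscles in 7 of the 9 members. Its level of *Fos*, an immediate early gene, was 412 where the other young muscles had 159, 31.4 and 47.2 and the old ones 5.50 to 50.3. Without mouse B, *Timp1* changed by -0.90 (adjusted p = 0.0418) and 5 members were called, *Timp2* being lost (adjusted p = 0.0666). The estimates of *Timp3* and *Mmp3* moved to -0.39 (adjusted p = 0.109) and -0.37 (adjusted p = 0.251). Without young mouse A or old mouse 57 there were 3 calls, without old mouse 58 or 60 there were 2, and without young mouse C there were 8. The count of all genes called also moved, from 1158 to 3796 over the removals, beside 2451 of 12720 with all samples. The member counts are therefore not read apart from that. *Timp1* lost its call without mouse A, 56, 57, 58, 59 or 60 (adjusted p = 0.051 to 0.0834), and *Timp2* without mouse A, B, D, 57, 58 or 60 (adjusted p = 0.0506 to 0.0679). *Mmp2* lost it without mouse A, 57, 58 or 60 (adjusted p = 0.0511 to 0.0572), and *Mmp19* without mouse 58 or 60 (adjusted p = 0.0532 and 0.0582). *Timp3* was called without mouse C (adjusted p = 0.0123) or D (adjusted p = 0.0459), and *Mmp3* without mouse C (adjusted p = 0.0296). Every estimate remained negative in these removals. With all samples kept, edgeR called 7 members (*Timp3* added) and DESeq2 8 (*Timp3* and *Mmp3* added), and 5 were called in the fit over all 27 samples, where *Mmp2* was lost (adjusted p = 0.118). Of 12720 genes edgeR called 2453 and DESeq2 3217, and of 15572 genes the fit over all 27 samples called 2089.

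Of the marker lists, 1 separated the ages in muscle: the 5 stellate-cell markers, among them *Pdgfrb*, also a pericyte gene, summed to 110 to 159 at 5 months and 64.4 to 87.5 at 20 months. The other lists overlapped. The 5 macrophage markers summed to 110 to 182 at 5 months and 63.4 to 124 at 20 months, and the 5 fibroblast markers to 754 to 995 and 409 to 759. The 4 endothelial markers summed to 416 to 471 and 321 to 422, the adipocyte markers to 24.3 to 55.3 and 12.04 to 75.1, and the muscle-fibre markers to 129514 to 149107 and 115183 to 139239. No marker of these lists was at 0 in all muscles. The part of connective-tissue or immune RNA in the muscle changes was not tested.

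Whether an age change was larger in one tissue than in another was tested by limma over all 27 samples. The 3 differences share samples, so they are not independent of each other. The liver change exceeded the muscle change in 4 members: *Mmp2* by 1.78 on the log2 scale (1.10 to 2.45, adjusted p = 8.0e-04), *Timp2* by 1.08 (0.64 to 1.52, adjusted p = 0.00149), *Mmp14* by 1.004 (0.60 to 1.41, adjusted p = 0.00145) and *Timp1* by 2.19 (0.93 to 3.44, adjusted p = 0.0152). Among all genes 17.5% were called in either direction and 9.35% with a larger liver value. For *Timp1* the liver side of this rests on 0 to 45 reads per sample. *Timp4* was at 0.61 (adjusted p = 0.0565), and passed narrowly (0.0498) once mouse was entered as a replicate block. Its liver side was at 0 in 8 of 9 samples.

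The adipose change exceeded the muscle change in 5 members, beside 14.7% of genes called in either direction and 8.34% with a larger adipose value. They were *Mmp19* by 1.97 (1.05 to 2.88, adjusted p = 0.00546), *Mmp14* by 0.81 (0.40 to 1.21, adjusted p = 0.00865), *Timp1* by 2.39 (1.13 to 3.64, adjusted p = 0.0112), *Mmp3* by 1.34 (0.57 to 2.12, adjusted p = 0.0185) and *Mmp2* by 1.09 (0.41 to 1.76, adjusted p = 0.0276). The *Mmp2* difference lost its call without adipose sample A, B, 38 or 39 or muscle sample A or B (adjusted p = 0.0504 to 0.0619), and that of *Mmp3* in edgeR (adjusted p = 0.0561) and with a pseudocount of 0.1 (adjusted p = 0.0756). *Timp3*, with a negative estimate in each tissue, differed by -0.29 between adipose tissue and muscle (-1.10 to 0.52, adjusted p = 0.666). Between liver and adipose tissue 0 members were called, beside 15.6% of genes. edgeR and DESeq2 also called 0 of them there, beside 1796 and 2484 of 15572 genes. *Mmp2*, *Mmp9*, *Mmp19* and *Timp2* had an unadjusted limma p under 0.05, beside 4933 of 15572 genes. *Timp2* was nearest, at 0.61 (0.17 to 1.05, adjusted p = 0.0529), and passed with the mouse as a replicate block (adjusted p = 0.0442) and in 6 of the 27 removals of a sample. Without adipose sample 36, *Mmp9* (1.67, adjusted p = 0.0492) and *Mmp19* (-1.29, adjusted p = 0.0246) passed.

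Ratios of 2 members within a sample do not depend on the sample's scaling factor. They were taken of normalized values without regard to length, so they are compared between samples and not read as molar ratios. In liver *Mmp2*/*Timp2* was 0.0833 to 0.165 at 5 months and 0.188 to 0.274 at 20 months, without overlap. *Mmp19*/*Timp2* in liver moved the other way, from 2.47 to 3.18 down to 1.10 to 2.13, also without overlap. In muscle *Mmp2*/*Timp2* had a median of 0.283 at 5 months and 0.290 at 20 months, with ranges of 0.261 to 0.337 and 0.259 to 0.320, so the 2 transcripts kept their proportion while each fell. *Mmp14*/*Timp2* in muscle was 0.220 to 0.315 and 0.166 to 0.228. *Mmp19*/*Timp2* in muscle was 0.0176 to 0.0497 and 0.0127 to 0.0163, without overlap. In adipose tissue *Timp3*/*Timp2* had a median of 0.995 at 5 months and 0.578 at 20 months, and *Mmp19*/*Timp2* of 0.117 and 0.205, with ranges that overlapped. These ratios were chosen with the members' values known and carry no test.

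**Figure D4:**
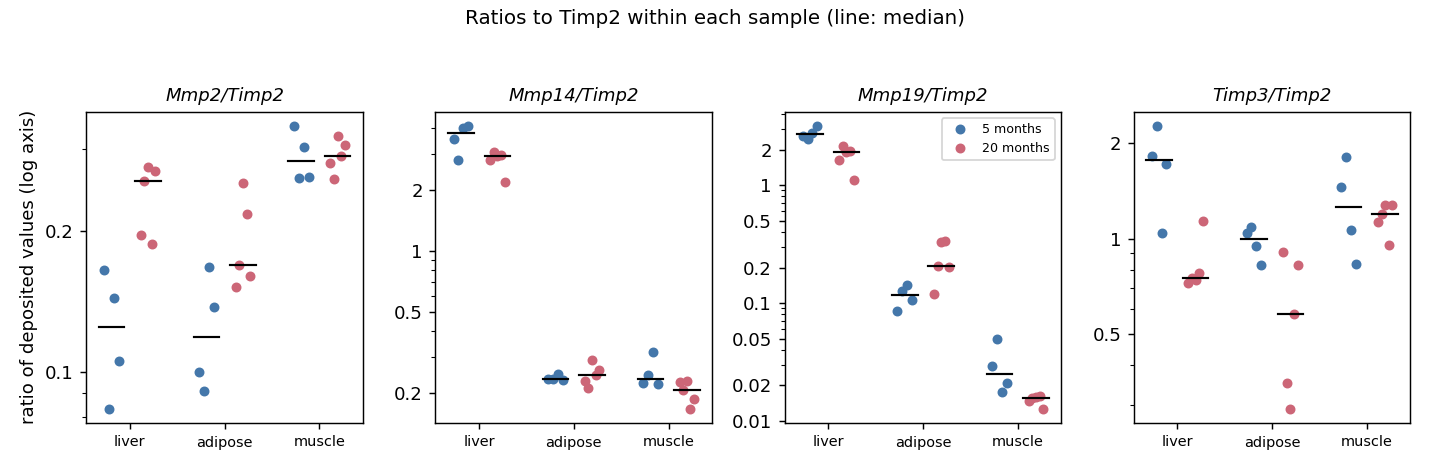
Ratio of normalized values of *Mmp2*, *Mmp14*, *Mmp19* and *Timp3* to *Timp2* in every sample (points, log axis that differs between panels) with the group median (line), by tissue and age. In liver the 20-month *Mmp2*/*Timp2* points (0.188 to 0.274) lie above all 5-month points, and in muscle both ages centre near 0.29.

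The wider pathway was followed through lists of other Mmp genes, Adam and Adamts proteases, genes of activation and clearance, matrix substrates and inducers. Over all genes tested 19.8% were called in liver, 19.1% in adipose tissue and 19.3% in muscle, with a median change near 0 in each, and a list whose called share lies near these is no result about that list. A gene near 0 at 1 age passes the filter only through the other age, so its direction is fixed in advance. In muscle 14 of the 16 matrix substrates tested fell and 0 rose, with a median log2 change of -1.04, beside 10.1% of all genes called lower. *Lox*, which cross-links collagen, fell by 1.77 on the log2 scale (limma adjusted p = 0.00783), *Col1a2* by 1.52 (adjusted p = 0.00151), *Col1a1* by 1.51 (adjusted p = 0.0038) and *Fn1*, fibronectin, by 1.41 (adjusted p = 0.00375). Normalized *Col1a2* went from 199 ± 65.0 (SD, n = 4) to 66.7 ± 12.4 (n = 5). Of the genes of activation and clearance 6 of 10 fell and 0 rose. Among them were *Plaur*, the urokinase receptor (-1.09), *Cd44*, which docks Mmps at the cell surface (-1.05), *Lrp1*, which takes up protease and inhibitor complexes (-0.86), and *Reck*, a membrane-bound Mmp inhibitor (-0.71). Of the Adam and Adamts genes 4 of 16 fell and 0 rose, with *Adamts4* at -1.74, *Adamts2*, the procollagen N-proteinase, at -1.30, *Adam15* at -0.65 and *Adamts10* at -0.47. Of the other Mmp genes 2 of 6 fell, the collagenase *Mmp13* (-2.08) and *Mmp28* (-0.86). *Mmp13* went from 9.7 ± 11 to 1.06 ± 1.4, and its young mean was raised by mouse B, at 25.88. It reached 1 in every young muscle but only in mouse 59 among the old, so it passed the filter through the group where it was high. Of the inducers 4 of 8 fell, *Fos* (-2.49), *Junb* (-1.33), *Fosl2* (-1.27) and *Ets2* (-0.59), and 0 rose. The young muscles varied widely in some of these genes. Their values were 163 ± 176 for *Fos*, 60.9 ± 42.8 for *Junb*, 8.2 ± 8.59 for *Adamts4* and 3.99 ± 3.63 for *Plaur*. The listed genes were not followed over the removals of a sample.

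In liver, beside 19.8% of all genes called and 1269 of 12654 called higher, 5 of 8 other Mmp genes tested rose with age and 0 fell. A gene near 0 at 5 months passes the filter only where the old livers are high, so it could only rise. The 5-month means were under 1 for *Mmp7* (0.464), *Mmp23* (0.945), *Adam8* (0.394), *Plat* (0.598) and *Plaur* (0.572), as for *Mmp12* and *Mmp13*. For such genes the direction in these counts was partly set by the filter. *Mmp12*, the macrophage elastase, went from 0.910 ± 0.248 to 23.7 ± 20.5, a log2 change of 3.24 (1.96 to 4.52, adjusted p = 0.0089). *Mmp13* changed by 1.36 from 0.105 ± 0.138, *Mmp7* by 0.88 and *Mmp23* by 0.88. Of the matrix substrates 5 of 15 rose and 0 fell, with *Col1a1* at 1.59, *Col3a1* at 1.57, *Col1a2* at 1.09 and *Col6a1* at 0.98. Normalized *Col3a1* went from 11.5 ± 2.01 to 38.4 ± 15.1 (adjusted p = 0.0089). Of the Adam and Adamts genes 3 of 13 rose (*Adam8* 1.33, *Adamts7* 1.31, *Adamts5* 0.70) and *Adam9* fell (-0.40). Of the genes of activation and clearance 3 of 11 rose, *Plat* (0.86), *Plaur* (0.80) and *Bsg* (0.46), and *Furin*, the convertase that activates pro-Mmp14, fell (-0.54). The inducers *Il1b* (0.86), *Tgfb1* (0.77) and *Junb* (0.76) rose, 3 of 8 tested.

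In adipose tissue, beside 19.1% of all genes called and 1365 of 14005 called higher, 2 of 9 other Mmp genes rose. They were *Mmp12*, from 74.3 ± 42.1 to 996 ± 989 (3.17, 1.23 to 5.12, adjusted p = 0.0372), and *Mmp13* (1.41). *Mmp13* had a 5-month mean of 0.444 and passed the filter through the old samples. Of the 16 Adam and Adamts genes 3 rose, led by *Adam8* (1.94), a leukocyte protease, and 3 fell: *Adamts4* (-1.94), *Adamts1* (-1.86) and *Adamts9* (-1.52), which all cut proteoglycans. *Adamts1* went from 167 ± 47.1 to 44.0 ± 6.41 (adjusted p = 0.00417). Of the genes of activation and clearance *Cd44* rose (1.54) and *Furin* (-0.62) and *Reck* (-0.58) fell, 3 of 10 tested. Of the 16 substrates 1 was called, *Eln*, elastin, which fell by 1.39 (adjusted p = 0.034). *Tgfb1* rose (0.86), and *Fosl2* (-1.58) and *Ets2* (-0.70) fell, among 13 inducers tested.

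**Figure D5:**
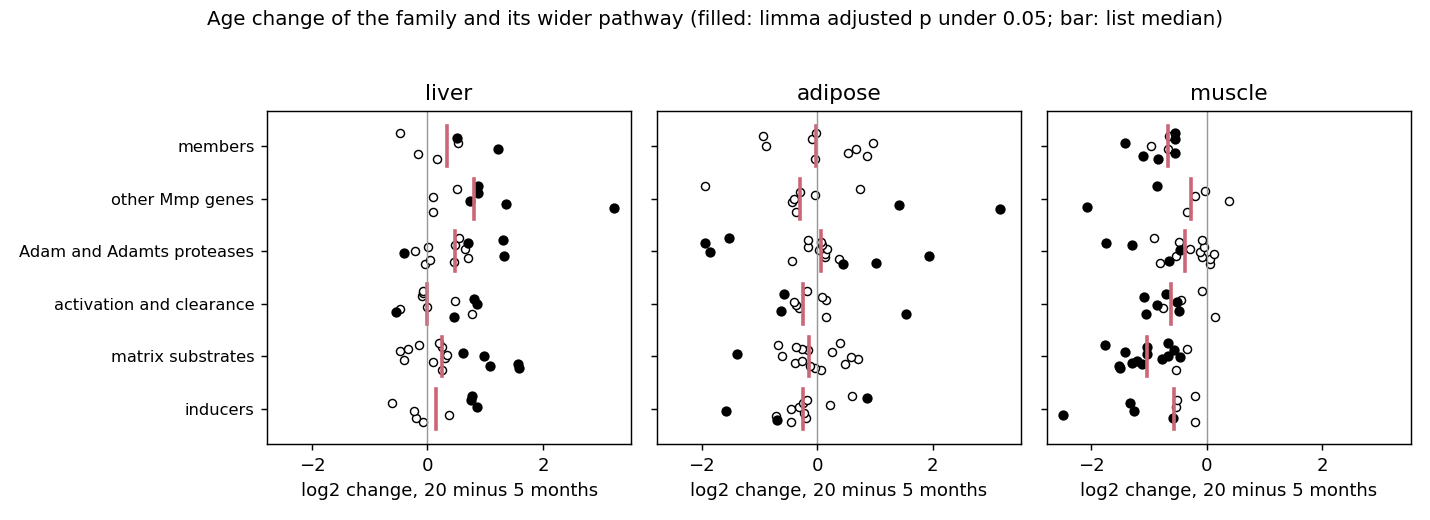
log2 change from 5 to 20 months of the 9 members (top row) and of the genes in 5 pathway lists, by tissue; each point is a gene, filled where it passed limma's test, and the red bar is the list median. In muscle no filled point lies right of 0 and the matrix substrates have a median of -1.04; in liver 1 filled point each of the Adam and activation lists lies left of 0.

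For each member the genes with the most similar pattern over all 27 samples were found by the root mean square difference of centred log2(value + 1) among 15572 genes. The closest were *Ddr2*, a collagen receptor, for *Timp2* (0.242), *Atf6b* for *Mmp14* (0.250), and *Shank3* (0.260) and the endothelial marker *Pecam1* (0.270) for *Timp3*. *Mmp3* was nearest to *Loxl2* (0.346), *Timp4* to *Cav1* (0.398), *Mmp2* to *St6galnac4* (0.407) and *Sulf1* (0.410), and *Mmp19* to the leukocyte gene *Lcp1* (0.410). *Timp1* was nearest to the chemokine *Ccl7* (0.481) and *Mmp9* to *Tnfrsf10b* (0.534), the least close match of the 9. The differences are not scaled by how much a member itself varies, which by the same measure was 0.787 for *Mmp14* and 2.93 for *Timp4*. Most of this likeness is between tissues, because the samples differ more by tissue than by age.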

How the data were processed

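Poly(A) RNA of 27 tissue samples was sequenced from a strand-keeping library. Reads were mapped and counted by the authors with CLC Genomics Workbench 23.0. Deposited values are a signal, CPM divided by a factor for each sample, and 100% of them were whole multiples of 1 read within 0.01, so reads were recovered. The aligner's build and strand setting are not given in the sources used here; coordinates are those of GRCm38.p6, a build in the submitters' processing notes. The tests had been planned for CPM and were kept on the deposited scale.

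Values were tested as log2(value + 1) with limma (version 3.58.1, R version 4.3.3, variance trend on). Genes had to reach 1 in 4 or more samples of a fit. P-values were adjusted by Benjamini-Hochberg over all such genes, and those under 0.05 were called. Age was fitted within each tissue, and tissues and the difference of age changes in 1 fit over 27 samples. Alternatives were a pseudocount of 0.1, no filter, median-of-ratios factors, edgeR 4.0.16 and DESeq2 1.42.0 on recovered reads, all 27 samples in 1 fit, the mouse as a block, and each sample left out. Procedures were tested on simulated data. Replicate samples differed beyond sampling noise (chi-square per degree of freedom 9.81 to 217.5 over 48 pairs), and 0 pairs were identical.

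The 5-month mouse numbers in the sample names pair the tissues of a mouse. Deviations of 12 such same-mouse pairs correlated by 0.136 on average (-0.0169 to 0.294), and those of 36 pairs of different mice by -0.045. The members, lists and tests were chosen with earlier results of these data known. Named genes are all members and, from each other list and tissue, up to 4 called genes with the largest change. One gene of the list of activation and clearance is not reported here and was left out of its counts.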

Additional observations from a re-analysis of the deposited data

Results flagged for a closer look

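Among 54 groups of a member, tissue and age, 7 had a sample set apart from the others by more than Dixon's 95% limit. For normally distributed values chance gives this in about 1 of 20 groups. That rate does not hold for *Mmp3* in young and old liver and *Timp4* in old liver. There all other samples were at 0, so any read passes the limit. *Mmp2* was 89.7 in the adipose tissue of young mouse C, where the other 3 had 48.0 to 51.3. *Mmp9* was 12.2 in the muscle of old mouse 59, where the others had 1.93 to 2.67. *Timp4* was 61.4 in the muscle of young mouse B, where the others had 45.9 to 48.2. Liver of old mouse 74 stood apart in 3 transcripts, with *Timp3* at 46.2 (others 25.4 to 26.7), *Mmp3* at 0.301 and *Timp4* at 0.2, and the other old livers had 0 of both *Mmp3* and *Timp4*. *Mmp3* in the liver of young mouse C was 0.0713, which is 1 read, and 0 in the other 3.

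The age change differed between tissues by the test of the difference itself in 9 instances. Liver exceeded muscle in *Mmp2* (1.78 on the log2 scale), *Timp2* (1.08), *Mmp14* (1.004) and *Timp1* (2.19). Adipose tissue exceeded muscle in *Mmp2* (1.09), *Mmp3* (1.34), *Mmp14* (0.81), *Mmp19* (1.97) and *Timp1* (2.39). The muscle samples are shared by both sets of differences.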

How the results depend on the processing

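In liver the calls of *Mmp2* and *Timp2* and the sign of all 6 tested members held in every alternative run. In adipose tissue the count of members called went from 0 to 3 with DESeq2 (*Timp1*, *Timp3*, *Mmp19*) and to 2 with all 27 samples in 1 fit (*Timp3*, *Mmp19*), and ranged from 0 to 3 over the removals of a sample. All genes called there were 2674 of 14005 in the main fit, 4347 with DESeq2 and 5270 of 15572 in the fit of 27 samples. Over the removals they ranged from 397 to 3748. In muscle the count of 6 went to 3 without the filter, which tests more genes (22100), to 7 in edgeR, 8 in DESeq2 and 5 in the fit of 27 samples, and ranged from 2 to 8 over removals. All genes called in muscle were 2451 in the main fit, 1507 without the filter, 2453 in edgeR and 3217 in DESeq2. They were 2089 in the fit of 27 samples and ranged from 1158 to 3796 over removals. With the mouse as a replicate block the liver-minus-adipose count went from 0 to 1 (*Timp2*), beside 2758 of 15572 genes. *Timp4* then passed between liver and muscle (adjusted p = 0.0498), and no other call changed. Over removals the liver-minus-adipose count ranged from 0 to 2, beside 1744 to 3359 genes.

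Signs turned for values that were not called. For the difference of the age change between liver and adipose tissue, *Mmp3* went from -0.63 (-1.40 to 0.15) to 0.68 in edgeR and 0.64 in DESeq2, and *Timp1* gave 1.01 with the pseudocount of 0.1, 2.45 in edgeR and 2.52 in DESeq2, where liver holds few reads of either. For adipose tissue against muscle at 5 months, *Mmp2* gave -0.06 with median-of-ratios factors and -0.03 in DESeq2, and *Timp1* -0.28 in edgeR and -0.37 in DESeq2. Over removals, the adipose age change of *Mmp14* ranged from -0.17 to 0.04, of *Timp2* from -0.21 to 0.01 and of *Timp4* from -0.17 to 0.13. The liver-minus-adipose difference ranged from -0.42 to 0.12 for *Timp1* and from -0.08 to 0.22 for *Timp4*, that of liver minus muscle from -0.08 to 0.38 for *Timp3*, and that of adipose tissue minus muscle from -0.19 to 0.47 for *Mmp9*. Adipose tissue against muscle at 5 months ranged from -0.2 to 0.1 for *Mmp2* and from -0.3 to 0.59 for *Timp1*. Liver against muscle at 20 months ranged from -0.47 to 0.09 for *Mmp9* and from -0.1 to 0.32 for *Timp1*. Except where the construction is named, the cause was not tested. Depth limits *Mmp3*, *Timp1* and *Timp4* in liver, which hold at most 45 reads in a sample. Without WT samples no value separates ageing from the deletion of *Mlx*. The 20-month samples share no numbers with the 5-month ones, so the age comparisons within a tissue could not be paired.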
